A study of Rattus norvegicus with 6 samples.

Results

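Complement and acute phase proteins were followed at the level of mRNA in rat ovaries, through 9 genes: Lbp, Lcn2, C3, C2, Cfb, Cfd, Serping1, C1s and Hp. A gene was counted as measured where at least 1 probe set of the array was annotated to it and to no other gene, which held for 7 of the 9, among 14217 genes measured in all. Each of the 7 had 1 probe set. C2 and Cfb are neighbouring genes, and all 4 of their probe sets were annotated to both, so neither has a value of its own. The set was chosen by earlier results on the difference between overfed and lean ovaries, above all the low Lbp and Lcn2 values, so their values in that comparison are given as a description, without a test.

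Overfed rats, with 3 ovary RNA pools, had been given a liquid diet of 220 kcal per kg of metabolic body weight by total enteral nutrition, feeding through a tube, for 28 days. Lean rats, also with 3 pools, had been given 155 kcal per kg in the same way for 28 days. Every female had been mated to a lean male, and ovaries were collected at 4.5 days post coitum. The series title names maternal obesity, ovarian inflammation and Egr-1, and the comparison asks which ovarian transcripts differ with overfeeding. The labels state neither strain and age nor how many animals made up a pool, so the spread between pools may be partly technical.

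Complement is a cascade of plasma proteases and binding proteins. The C1 complex or lectins start it on a surface, C2 and factor B carry the catalytic sites of the convertases that split C3, and regulators such as C1 inhibitor, the product of Serping1, hold it in check. Acute phase proteins are secreted when cytokines such as interleukin 6 and interleukin 1 signal injury or infection, chiefly by the liver, but epithelia, macrophages and fat make several of them as well. Lbp binds bacterial lipopolysaccharide and hands it to CD14 and Toll-like receptor 4, and Lcn2 binds the iron-carrying siderophores of bacteria.

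The deposited values are logarithms, read here as log2, and had been centred probe set by probe set, so 0 is the middle of the 6 pools and differences between pools are known while levels are not. It follows that no gene's level can be set against another's, that absence of a marker cannot be seen, and that the tissue label could not be checked against ovarian markers. Array medians lay between -0.0031 and 0.0099 in overfed pools and between -0.0094 and 0.0042 in lean pools. Overfed pool 1 had the widest spread over probe sets (SD 0.29, against 0.14 to 0.24 in the other 5 pools). Lean pool 3 stood apart in the 9 hybridization control probe sets, with a mean of 0.53. Overfed pool 3 was the lowest there at -0.23, and the remaining pools lay between -0.045 and 0.035. Differences without overfed pool 1 and lean pool 3 are given for the members and for Foxj1. After the pathway lists they are given for the named pathway genes that moved most.

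Lbp and Lcn2 were the members that separated the groups by a wide margin, both lower in overfed ovaries. C1s also did not overlap, slightly higher in overfed ovaries, and the other 4 members overlapped. Groups that do not overlap were found in 3 of the 7 members, 2 lower and 1 higher, and in 12.7% of all 31042 probe sets tested, 5.33% lower and 7.35% higher. Since the members were chosen with this contrast in view, nothing is read from that share. The median difference over the 7 members was -0.13, beside 0.015 over all probe sets.

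Lbp, the lipopolysaccharide-binding protein (Entrez gene 29469), had relative values of -1.22, -0.61 and -0.86 in overfed pools 1 to 3, against 1.34, 0.61 and 1.99 in lean pools 1 to 3. Every overfed pool was below every lean pool, and the lean pools were spread more widely than the overfed ones (SD 0.69 in lean, 0.31 in overfed, n = 3 each). The values next to the gap, overfed pool 2 and lean pool 2, mirror each other because 0 is the midpoint between them, and the gap was 1.23. The difference, overfed minus lean, was -2.21 (SE 0.34), or 4.63-fold if the logarithms are to base 2. It was the lowest difference of all 31042 probe sets. Leaving out lean pool 3 gave -1.87, leaving out overfed pool 1 gave -2.05, and leaving out both gave -1.71. In RNA from whole ovaries, fewer cells of a type and less RNA per cell cannot be told apart.

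Lcn2, lipocalin 2 (Entrez gene 170496), is secreted by epithelia and stored in neutrophil granules. It had -0.94, -0.46 and -0.40 in overfed pools 1 to 3, against 1.18, 0.40 and 1.40 in lean pools 1 to 3. The groups again did not overlap, with a gap of 0.80, and overfed pool 1 and lean pool 3 were the extremes, as for Lbp. The difference was -1.60 (SE 0.27), or 3.02-fold on the same reading, and it was the 25th lowest of all probe sets. Leaving out lean pool 3 gave -1.39, overfed pool 1 -1.43 and both -1.22.

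**Figure D1:**
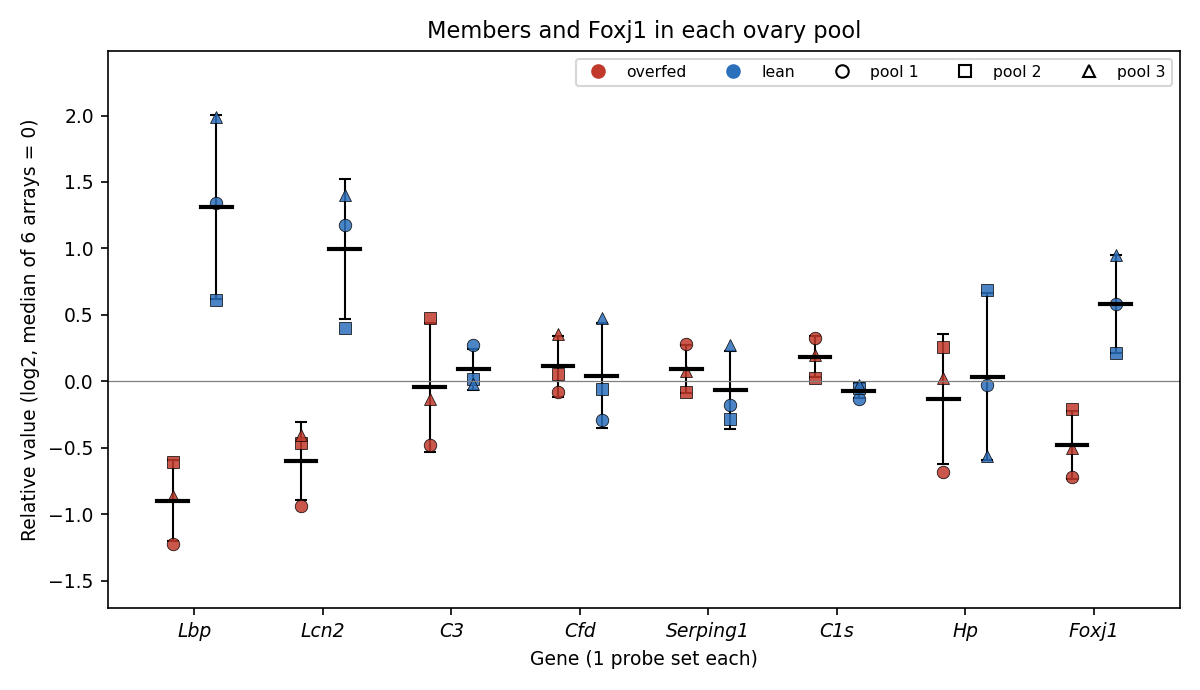
Relative log2 value (vertical axis, median of the 6 arrays at 0) of the 7 measured members and Foxj1 in each ovary pool, overfed left and lean right of each gene, with marker shape giving the pool number, a horizontal line at the group mean and a bar of 1 SD (n = 3 pools). Overfed and lean points are far apart for Lbp, Lcn2 and Foxj1, just apart for C1s, and mixed for C3, Cfd, Serping1 and Hp.

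The RefSeq promoter table (build GRCr8) held 3 of the 9 genes, Lcn2, C3 and Cfd. Lcn2, which separated the groups, and C3, which did not, are shown because both hold matches to acute phase motifs in the stretch before the gene. The 250 bases before the start used in that table were searched whole, on both strands, for GGGA and CC set 4 bases apart (NF-kappaB), TTGCNNAA (C/EBP), TTCNNNGAA (STAT) and GTAAACA (forkhead), and matches are in capitals. No motif match was counted as a binding site. The Lcn2 stretch printed lies on the minus strand at chr3:36081852-36082030 and is 179 bases long. The 71 bases between it and the start were searched but are not printed, because the annotated span of the gene reaches that far. The C3 stretch lies on the minus strand at chr9:2201340-2201589.
Lcn2: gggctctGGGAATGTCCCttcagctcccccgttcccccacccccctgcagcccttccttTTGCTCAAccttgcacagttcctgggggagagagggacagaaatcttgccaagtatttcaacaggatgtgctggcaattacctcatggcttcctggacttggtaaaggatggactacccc
C3: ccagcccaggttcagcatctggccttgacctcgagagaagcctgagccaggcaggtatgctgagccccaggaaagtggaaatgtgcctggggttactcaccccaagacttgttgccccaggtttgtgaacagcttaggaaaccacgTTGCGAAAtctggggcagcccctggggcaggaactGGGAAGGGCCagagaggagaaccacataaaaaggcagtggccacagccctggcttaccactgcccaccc

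Lcn2 had 2 overlapping NF-kappaB matches, GGGAATGTCC on the plus strand of the gene starting 243 bases before its start and GGAATGTCCC, a match on the other strand, starting at 242, and 1 C/EBP match at 191. C3 had 1 C/EBP match at 104 and 1 NF-kappaB match at 69. Cfd had no match to any of the 4 motifs, and neither Lcn2 nor C3 had one to the STAT or forkhead letters. Of 33469 promoters of that length, 16.4% held the NF-kappaB letters, 9.22% the C/EBP letters, 7.67% the STAT letters and 3.21% the forkhead letters. 

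C3, the component on which the complement pathways converge (Entrez gene 24232), had -0.48, 0.48 and -0.13 in overfed pools 1 to 3, against 0.27, 0.021 and -0.021 in lean pools 1 to 3. The overfed pools held both the highest and the lowest of the 6 values, and the lean pools lay close together between them. The difference was -0.13 (SE 0.23), which turned to 0.091 when overfed pool 1 was left out, to -0.39 when overfed pool 2 was, and to 0.036 when both overfed pool 1 and lean pool 3 were.

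Cfd, factor D or adipsin (Entrez gene 54249), cleaves factor B in the alternative pathway and is made in quantity by fat cells. It had -0.083, 0.059 and 0.36 in overfed pools 1 to 3, against -0.29, -0.059 and 0.48 in lean pools 1 to 3. Pool 3 was the highest and pool 1 the lowest in both groups, so the spread within a group exceeded the difference of 0.064 (SE 0.21). That difference turned to -0.10 without lean pool 1 and to -0.059 without overfed pool 3, and was 0.38 without lean pool 3 and overfed pool 1. The 8 adipocyte markers were all below 0 in their differences, with list means of -0.31 to 0.059 in overfed pools and -0.093 to 0.40 in lean pools. Their part in the Cfd values was not tested.

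Serping1, the C1 inhibitor (Entrez gene 295703), had 0.28, -0.077 and 0.077 in overfed pools 1 to 3, against -0.18, -0.28 and 0.27 in lean pools 1 to 3. Lean pool 3 lay beside overfed pool 1 at the top, so the groups overlapped through that lean pool. The difference was 0.16 (SE 0.17) with all pools, 0.32 without lean pool 3, 0.063 without overfed pool 1 and 0.23 without both.

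Hp, haptoglobin (Entrez gene 24464), binds free haemoglobin in plasma. It had -0.68, 0.26 and 0.028 in overfed pools 1 to 3, against -0.028, 0.69 and -0.56 in lean pools 1 to 3. It varied widely inside both groups (SD 0.49 in overfed, 0.62 in lean), and its lean order was the opposite of that of Lbp and Lcn2 at the ends, with lean pool 2 the highest and lean pool 3 the lowest. The difference was -0.16 (SE 0.35), which became 0.11 when overfed pool 1 was left out, 0.16 when lean pool 2 was, -0.46 when lean pool 3 was, and -0.18 when overfed pool 1 and lean pool 3 both were.

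C1s, the serine protease of the C1 complex that cleaves C4 and C2 (Entrez gene 192262), had 0.33, 0.026 and 0.20 in overfed pools 1 to 3, against -0.13, -0.051 and -0.026 in lean pools 1 to 3. All overfed pools were above all lean pools, but the gap of 0.052 was narrow, with overfed pool 2 close to lean pool 3. The difference was 0.25 (SE 0.10), or 1.19-fold if base 2. It stayed between 0.18 and 0.33 with any 1 pool left out and was 0.20 without lean pool 3 and overfed pool 1.

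The other subunits of the C1 complex also had differences above 0, though none passed the limma test adjusted over all 31042 probe sets. C1qa, a chain of the recognition subunit, had 0.30, 0.039 and 0.26 in overfed pools 1 to 3, against -0.064, -0.048 and -0.039 in lean pools 1 to 3, a difference of 0.25 (SE 0.094, unadjusted p = 0.0322, limma adjusted p = 0.719). C1r, the protease that activates C1s, had 0.25, -0.033 and 0.25 in overfed pools 1 to 3, against -0.18, 0.013 and -0.013 in lean pools 1 to 3, a difference of 0.22 (SE 0.11, limma adjusted p = 0.814). Overfed pool 2 was the lowest overfed pool for C1s, C1qa and C1r alike, and for C1r it fell among the lean pools. For C1qb it was the highest overfed pool instead. The remaining chains were at 0.13 for C1qb (limma adjusted p = 0.835, groups not overlapping) and 0.15 for C1qc (limma adjusted p = 0.853, groups overlapping). The C1q chains are made largely by macrophages, and the 9 macrophage markers, which include those 3 genes, had list means of 0.044 to 0.22 in overfed pools and -0.15 to -0.095 in lean pools, with all 9 differences above 0. Fibroblast and stroma markers, another source of C1r and C1s, had list means of -0.16 to 0.55 in overfed and -0.31 to 0.14 in lean pools, with 6 of 6 differences above 0 and the highest mean in overfed pool 1. The difference of that list mean, 0.19, turned to -0.026 without overfed pool 1. Of all 14217 genes, 7423 had a difference above 0. The part of either cell type in the C1 values was not tested.

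**Figure D2:**
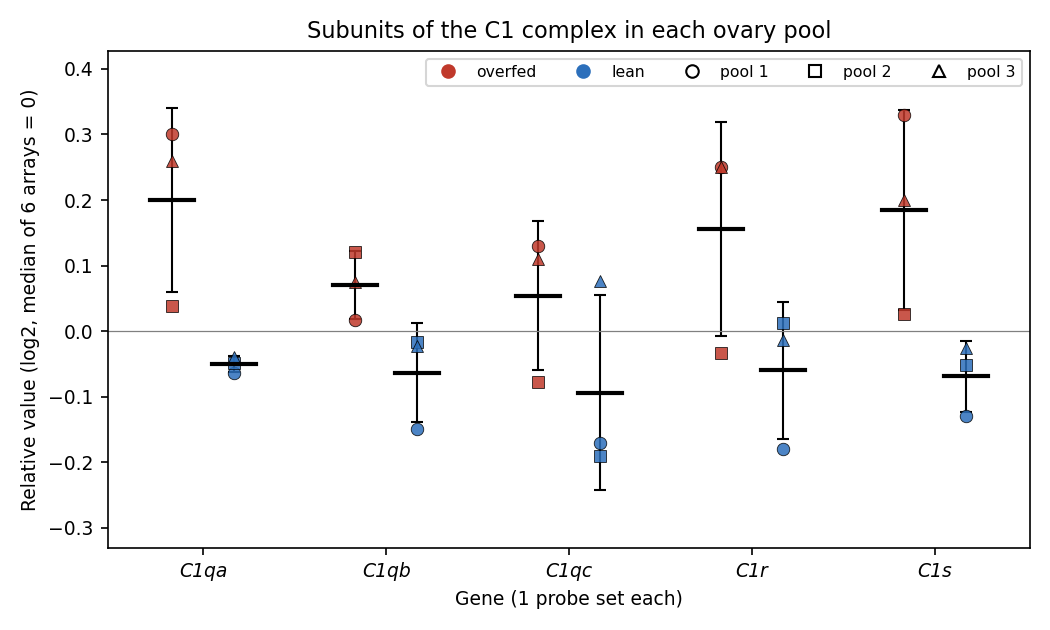
Relative log2 value (vertical axis, median of the 6 arrays at 0) of the 5 genes of the C1 complex in each ovary pool, overfed left and lean right, with marker shape for the pool number, the group mean and 1 SD (n = 3 pools). Overfed and lean points do not overlap for C1qa, C1qb and C1s, and all differences lie between 0.13 and 0.25.

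The order of the pools was then compared with that of Foxj1, the transcription factor that drives formation of motile cilia and marks multiciliated cells such as those of the oviduct. Foxj1 (Entrez gene 116557) had -0.72, -0.21 and -0.50 in overfed pools 1 to 3, against 0.58, 0.21 and 0.95 in lean pools 1 to 3, a difference of -1.06 (SE 0.21), and of -0.76 without lean pool 3 and overfed pool 1. From high to low, its pools ran lean 3, lean 1, lean 2, overfed 2, overfed 3, overfed 1. Lbp had the same order over all 6 pools, and it was the only 1 of the 7 members that did. Lcn2 had the same lean order and the same lowest pool, overfed pool 1, but its overfed pools 2 and 3 were the other way round, close together at -0.46 and -0.40.

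Among all other probe sets, 0.805% had the order of Foxj1 over all 6 pools and 2.59% had it within each group. Among probe sets without overlap and lower in overfed ovaries, 15.1% had it. Within the lean pools alone, Lbp, Lcn2 and Serping1 had the order of Foxj1 (17.9% of all other probe sets). Within the overfed pools alone, Lbp, C3 and Hp had it (17.7% of all other probe sets). Quantile normalization of the arrays left the order of Foxj1 as it was but changed those of Lbp and Lcn2, whose overfed pools then ran 3, 1, 2 from high to low. Lbp then had -0.86, -1.09 and -0.70 in overfed pools 1 to 3, against 1.67, 0.89 and 2.94 in lean pools 1 to 3. The match of Lbp with Foxj1 over the overfed pools was therefore lost under quantile normalization. The lean order was the same with and without that step for Lbp, Lcn2 and Foxj1. Array median centring left the number of members with the order of Foxj1 over all 6 pools at 1.

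Of the 10 multiciliated cell markers 6 were measured. All 6, among them Foxj1, which itself sets the order compared, had the same order over the 6 pools. All 6 were lower in overfed ovaries without overlap, as were 6.34% of all genes. Their list mean was -1.19, -0.17 and -0.77 in overfed pools 1 to 3, against 0.54, 0.17 and 0.82 in lean pools 1 to 3. Rsph1, a radial spoke protein of motile cilia, was at -1.69. The 10 measured markers of oviduct and simple epithelium had list means of 0.11, -0.24 and -0.78 in overfed pools 1 to 3, against 0.50, -0.16 and 0.77 in lean pools 1 to 3. That list shared the lean order, as did the lists for mesothelium and ovarian surface, macrophages, adipocytes, fibroblasts and stroma, and smooth muscle. The neutrophil, hepatocyte, and granulosa and luteal lists had other lean orders. Over the overfed pools the oviduct and simple epithelium list placed pool 1 highest and pool 3 lowest. Lbp and Lcn2 had overfed pool 1 lowest, but overfed pool 2 lowest after quantile normalization. The first measured markers of the oviduct and simple epithelium list, Pax8 and Epcam, were at -0.77 and -0.47.

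Neutrophils also carry Lcn2. The 5 measured neutrophil markers all had differences above 0, with list means of 0.30, 0.58 and -0.0079 in overfed pools 1 to 3, against -0.071, -0.52 and -0.078 in lean pools 1 to 3. S100a8 and S100a9 carried these means with differences of 1.08 and 1.12, beside 0.20 for Csf3r, 0.093 for Cxcr2 and 0.081 for Mmp8. The part of epithelial or neutrophil RNA in the Lbp and Lcn2 values was not tested.

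**Figure D3:**
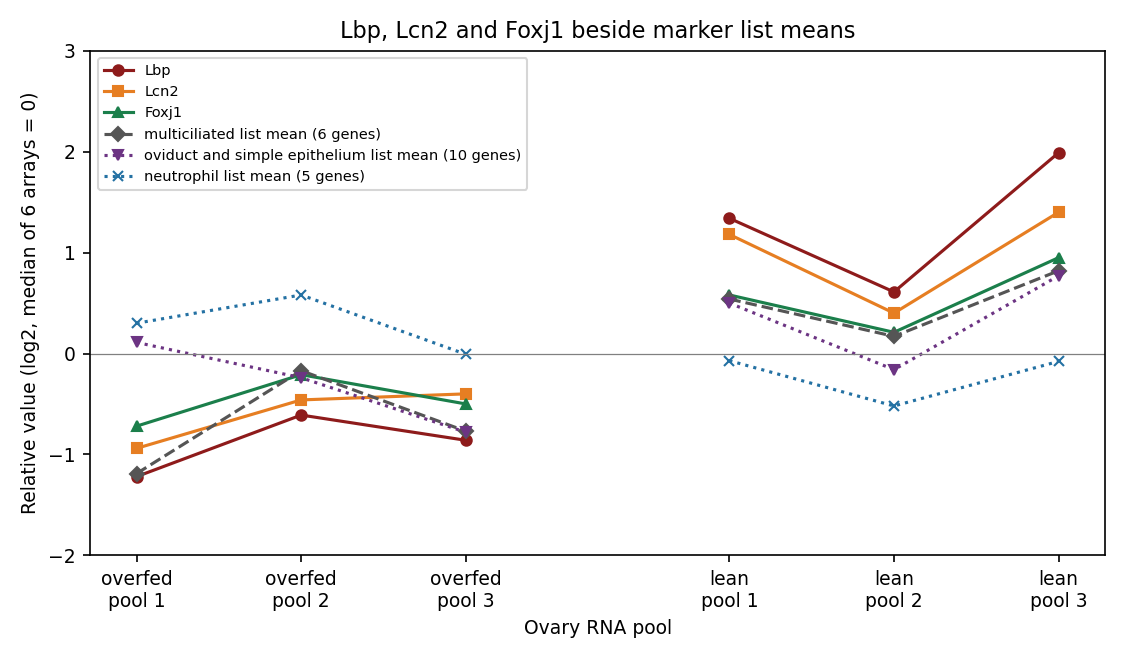
Relative log2 value (vertical axis, median of the 6 arrays at 0) of Lbp, Lcn2 and Foxj1 and the mean of 3 marker lists (6 multiciliated, 10 oviduct and simple epithelium, 5 neutrophil genes) in each of the 6 ovary pools, overfed left and lean right, with lines joining the pools of 1 group only to guide the eye. Lbp, Lcn2, Foxj1 and the multiciliated mean dip at lean pool 2 and are lowest at overfed pool 1, where the oviduct and simple epithelium mean is at 0.11.

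Over the 705 probe sets that had 1 gene name and an SD of at least 0.5 over the 6 pools, the gene whose profile was most like that of Lbp was Foxj1 (Pearson r = 0.993 over 6 pools), followed by Lcn2 (r = 0.990), Ccdc81 (r = 0.990), Cfap126 (r = 0.982) and Rab37 (r = 0.982). The genes most like Lcn2 were Lbp (r = 0.990), Gpt (r = 0.984), Rp1l1 (r = 0.982), Foxj1 (r = 0.981) and Esrrg (r = 0.976). These values describe likeness and carry no test. The 6 pools fall into 2 separate groups for each of these genes, so a high r holds the difference between the groups as well as the order within them. In size they differed. Against -2.21 for Lbp, Lcn2 was at -1.60, Cfap126 at -1.09, Foxj1 at -1.06, Rab37 at -0.96 and Ccdc81 at -0.84. Against -1.60 for Lcn2, Rp1l1 was at -1.03, Esrrg at -0.92 and Gpt at -0.86.

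Beyond the members, 113 genes of the complement and acute phase pathways were listed by role, and 96 of them were measured. In the limma test with Benjamini-Hochberg adjustment over all probe sets, 0 of the 96 passed 0.05, as did 0 of all 31042 probe sets (0.0%), of which 2070, or 6.67%, had an unadjusted p under 0.05. The smallest adjusted p among the 96 was 0.647. By unadjusted p, 6 of the 96 (6.25%) lay under 0.05, 3 of them higher and 3 lower, beside 7.15% of all 14217 genes, 2.67% higher and 4.47% lower. Overfed and lean values were fully apart in 13 of the 96 (13.5%), 10 higher and 3 lower, beside 13.1% of all genes, 6.76% higher and 6.34% lower. The median difference over the 96 was -0.012, with 46 above 0 and 50 below, beside 7423 above and 6794 below over all 14217 genes. The pathways as listed thus differed between the groups about as often as genes in general did.

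Among initiators of the classical and lectin pathways, 9 of 12 differences were above 0 and the median was 0.12. After C1qa, the lowest p was that of the ficolin Fcna, a lectin pathway recognition protein, at 0.36 (SE 0.16, limma adjusted p = 0.751). Its values were 0.0099, 0.23 and 0.62 in overfed pools 1 to 3, against -0.20, -0.032 and -0.0099 in lean pools 1 to 3, so overfed pool 1 all but touched lean pool 3.

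Terminal components and properdin showed 2 of 7 differences above 0, with a median of -0.082 and all values between -0.14 and 0.047. Properdin, encoded by Cfp, was at -0.12, C8a at -0.10 and C5 at -0.082, with limma adjusted p-values of 0.887, 0.916 and 0.941. A further probe set of Cfp was at 0.10, so its probe sets differ in sign. Complement receptors were split 3 to 3. The leukocyte integrin chain Itgb2 was at 0.23 (limma adjusted p = 0.755) without overlap, the anaphylatoxin receptor C5ar1 at 0.17 (limma adjusted p = 0.844) and its relative C3ar1 at -0.15 (limma adjusted p = 0.892).

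Complement regulators had 9 of 11 differences below 0 and a median of -0.093. The membrane inhibitor Cd59b, which blocks assembly of the terminal complex and was formerly listed as Cd59, had -0.17, -0.079 and -0.046 in overfed pools 1 to 3, against 0.046, 0.094 and 0.31 in lean pools 1 to 3. The groups did not overlap, and the difference was -0.25 (SE 0.10, unadjusted p = 0.0388, limma adjusted p = 0.726). Cpn1, the carboxypeptidase that inactivates anaphylatoxins, was at -0.19 (SE 0.075, unadjusted p = 0.0367, limma adjusted p = 0.725), also without overlap. The pools of Cpn1 ran in the order of Foxj1 over all 6, as those of 0.805% of all other probe sets did. Among probe sets that, like Cpn1, were lower in overfed ovaries without overlap, the share was 15.1%. Susd4 was at -0.30 (limma adjusted p = 0.822).

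The plasma proteins of the acute phase were balanced, 11 above 0 and 11 below, with a median of 0.00037. By lowest p they were led by Ahsg at -0.32, the fibrinogen chain Fga at 0.17 and Ambp at -0.15 (limma adjusted p-values 0.829, 0.829 and 0.836), although a further probe set of Fga was at -0.11. Some genes of this list had very high values in 1 or 2 pools. Serpina3n, a serine protease inhibitor, had 2.43, -0.88 and 0.34 in overfed pools 1 to 3, against -0.056, -0.83 and 0.056 in lean pools 1 to 3. Fgg, another fibrinogen chain, had 2.76 in overfed pool 2, with every other pool between -0.52 and 0.22. Albumin mRNA, Alb, had 3.75 in overfed pool 1 and 2.09 in lean pool 1, and its other probe set 1.28 and 0.32 in the same pools. In each of these 3 genes the range within the overfed group exceeded the difference between groups. C-reactive protein mRNA, Crp, was at 0.045 (limma adjusted p = 0.964).

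Partners of Lbp in lipopolysaccharide recognition showed differences between -0.080 and 0.14 in 9 measured genes, 4 above 0 and 5 below. The co-receptor Cd14 was at -0.065, the receptor Tlr4 at -0.080 and its cofactor Ly96 at -0.026, with limma adjusted p-values of 0.962, 0.948 and 0.982. The lowest p-values in this list were those of Tlr2 at 0.14, Traf6 at 0.11 and Ticam1 at -0.073 (limma adjusted p-values 0.868, 0.885 and 0.936). The 3 further probe sets of Traf6 were at -0.25, 0.16 and -0.22, and a further probe set of Ticam1 was at 0.012.

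Among siderophore and mucosal defence genes the secretory epithelial protein Wfdc2 had the lowest p, at -0.60 (SE 0.18, unadjusted p = 0.0128, limma adjusted p = 0.647). It had -0.039, -0.17 and -0.52 in overfed pools 1 to 3, against 0.41, 0.039 and 0.61 in lean pools 1 to 3, without overlap. Its lean order was that of Lbp, and over the overfed pools it ran 1, 2, 3 from high to low, as the oviduct and simple epithelium list did. The immunoglobulin transporter Pigr was at -0.74 and the protease inhibitor Slpi at -0.58, both with overlap (limma adjusted p-values 0.811 and 0.799). Slc22a17, a receptor of Lcn2, was at 0.010, and Lrp2 of the same list at -0.25, with overlap (limma adjusted p = 0.959 for Lrp2). The neutrophil alarmins S100a9 and S100a8 were at 1.12 and 1.08 (limma adjusted p-values 0.715 and 0.767), with overlap in both.

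Inducers of the acute phase response had 9 differences above 0 and 9 below, with a median of 0.0063. Groups did not overlap in 5 of the 18, all higher in overfed ovaries (6.76% of all genes), and the sizes were small: 0.20 for Il6, 0.22 for Il1r1, 0.14 for Socs3, 0.12 for Il1b and 0.079 for Tnf, with limma adjusted p-values of 0.811 to 0.887. The further probe sets of Il1r1 were at -0.091 and -0.14, with overlap. The transcription factor Cebpd, which is induced early in the response, had the lowest p, at 0.50 (SE 0.20, unadjusted p = 0.0384, limma adjusted p = 0.726). Its other probe sets were at 0.59, without overlap, and at -0.032. Cebpa was at -0.29, with its other probe sets between -0.18 and 0.049, and the shared cytokine receptor chain Il6st at 0.30 (limma adjusted p-values 0.751 and 0.808).

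Without lean pool 3 and overfed pool 1, several of the named differences shrank: Cebpd to 0.18, Il6st to 0.18, Susd4 to -0.074, Cd59b to -0.13, Fga to 0.068, Tlr2 to 0.018, C5ar1 to 0.10, Cfp to -0.037, C8a to -0.064 and Ticam1 to -0.045. Others widened, namely Fcna to 0.54, C3ar1 to -0.29, C5 to -0.20 and Traf6 to 0.19. The limma adjusted threshold was passed by 0 of the 96 genes with these pools left out as well, and leaving out overfed pool 1 alone brought Cebpd to 0.32 and Il6st to 0.14.

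**Figure D4:**
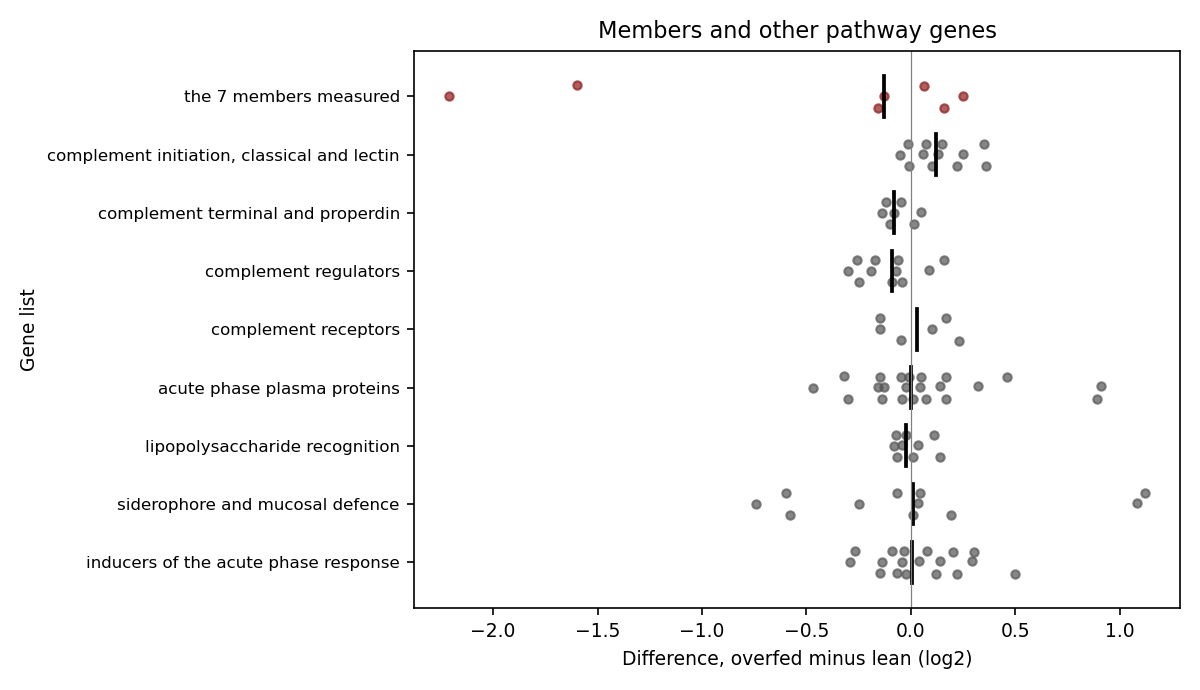
Difference in log2 value, overfed minus lean (horizontal axis), of the 7 measured members (top row) and of the other measured pathway genes in 8 lists (rows below), 1 point per gene with a vertical bar at the list median and points spread vertically only for legibility. Lbp at -2.21 and Lcn2 at -1.60 lie apart from the other members, and list medians lie between -0.093 and 0.12.

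In the remaining cell type lists the list means of overfed and lean pools overlapped. The part of these cell types in the member values was not tested. Mesothelium and ovarian surface markers had list means of -0.10 to 0.33 in overfed and -0.24 to 0.31 in lean pools, with Msln at 0.068 and Krt7 at -0.46. Hepatocyte markers, checked because the liver makes most acute phase proteins, had means of -0.17 to 0.64 in overfed and -0.12 to 0.34 in lean pools, with Alb at 0.46 and Apoa1 at 0.37. The highest means, in pool 1 of each group, came from Alb, since the other 5 hepatocyte markers lay between -0.20 and 0.23 in overfed pool 1 and between -0.19 and 0.22 in lean pool 1. Smooth muscle means ran from -0.58 to 0.83 in overfed and from -0.98 to 0.74 in lean pools, with Myh11 at 0.061 and Des at -0.050, and granulosa and luteal means from -0.31 to 0.17 in overfed and from -0.20 to 0.0043 in lean pools, with Cyp19a1 at 0.45 and Inha at 0.11. Among markers of the lists described earlier, Cd68 was at 0.032, Adgre1 at 0.21, Adipoq at -0.26, Lep at -0.14, Dcn at 0.15 and Lum at 0.092.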

How the data were processed

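Total RNA of 6 ovary pools was labelled with biotin for Affymetrix arrays, per the labels' protocols, and the submitters' processing notes name GCOS, the array maker's software. The deposited values are log values read here as log2. How the authors summarised probes and normalized the arrays, and the logarithm base, is not given in the sources used here. Since the median of each probe set over the 6 arrays was 0 within 5e-07, the values were centred and no filter on dim probe sets could be made. Of 31099 probe sets, 57 array controls were left out and 31042 tested. Of these 20826 had 1 gene name, 436 several and 9780 none, from the platform annotation, with symbols updated through Entrez identifiers in the RefSeq table (GRCr8). The table held 0 columns of other series. A pathway or marker gene was represented by 1 probe set, taking RefSeq mRNA accessions first, then unique over shared probe sets, then the lowest identifier. The overfed minus lean difference came from limma 3.58.1 under R 4.3.3 (lmFit, then eBayes) without covariates, with two-sided p-values adjusted by Benjamini-Hochberg over all probe sets. The fit was tested on simulated data. With 3 against 3 pools the number of arrays limits the precision.

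The members and the lists were chosen with earlier results of these data known. Named are all members, Foxj1, the 3 pathway genes of lowest p in each list, the first 2 measured markers of each cell type list, and the 5 genes most like Lbp and Lcn2. Named outside this rule, after their values were seen, are C1qb, C1qc, Crp, Fgg, Serpina3n, Cd14, Tlr4, Ly96, Pigr, Slpi, Slc22a17, Lrp2, Il6, Il1b, Il1r1, Socs3, Tnf, Csf3r, Cxcr2 and Mmp8. Alternatives were quantile normalization, array median centring, array weights, a robust prior, a block for pool number, omission of pools and the mean of a gene's probe sets.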

Additional observations from a re-analysis of the deposited data

How the results depend on the processing

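Lbp stayed between -2.72 and -1.71 and Lcn2 between -1.89 and -1.22 under the alternatives run, the largest under quantile normalization for Lbp (-2.72) and without lean pool 2 for Lcn2 (-1.89). C1s and Serping1 kept their direction with any 1 pool left out (0.18 to 0.33 and 0.045 to 0.32), whereas C3 (-0.39 to 0.091), Cfd (-0.10 to 0.28) and Hp (-0.46 to 0.16) did not. The count of members without overlap was 3 to 4 with 1 pool left out. Groups with fewer pools separate more easily, and the share over all probe sets is not given for these settings. Nothing is therefore read from that count. No pathway gene passed the adjusted threshold under any alternative run. At an unadjusted p, 1 to 6 pathway genes were higher and 1 to 5 lower with 1 pool left out. The 3 higher became 6 without overfed pool 2 and 1 without lean pool 2 or lean pool 3. The 3 lower became 5 without lean pool 2 and 1 without overfed pool 3. Array weights gave 5 lower, and the pool number as a replicate block also gave 5 lower. Shares over all genes under these alternatives are not given here. Whether the pathway counts moved apart from those of genes in general therefore cannot be told. The block is not part of the design: deviations of same-numbered pools correlated at 0.097, 0.17 and -0.284, overfed pools 1 and 3 correlated best with lean pools of another number, and the block moved no other count by over 1.5 times. The number of members with the order of Foxj1 over 6 pools was 0 after quantile normalization and 1 after array median centring. Among named pathway genes, C5 turned to 0.031 without lean pool 2 (range -0.19 to 0.031 with 1 pool left out), Ticam1 to 0.0065 without overfed pool 3 (range -0.14 to 0.0065) and Traf6 to -0.047 as the mean of its probe sets. The causes of these changes were not tested. If the values are natural logarithms, the folds given are too small. Signal over background is unknown, so a dim probe set cannot be told from a bright one.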

Other observations

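The 4 probe sets annotated to both Cfb and C2, which assemble the convertases of the alternative and the classical pathway, did not move together. One had -0.81, 0.31 and -0.11 in overfed pools 1 to 3, against 0.15, -0.11 and 0.11 in lean pools 1 to 3, a difference of -0.26 (SE 0.26). Over the overfed pools it ran as C3 did, with pool 2 the highest and pool 1 the lowest. The other 3 had differences of 0.053, 0.14 and 0.050, all highest in overfed pool 3 among the overfed pools, and for 1 of them (at 0.14) the groups were just apart, by 0.011. Which of the 2 genes each probe set reports cannot be told from the annotation, and these values were not tested.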
